A study of Mus musculus with 6 samples.

Results

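The CCN genes encode secreted matricellular proteins, which sit in the extracellular matrix and signal to cells rather than building the matrix. The genes described here are Ccn1, Ccn2, Ccn3, Ccn4 and Ccn5, known by the older symbols Cyr61, Ctgf, Nov, Wisp1 and Wisp2. All probe sets whose only gene symbol in the platform annotation was one of these were taken. That gave 10 probe sets of 5 genes, out of 45037 probe sets and 18193 named genes. Ccn1 had 4 probe sets, Ccn3 and Ccn4 had 2 each, and Ccn2 and Ccn5 had 1 each. The choice used no measured value, and all 10 passed the filter on dim probe sets.

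RNA came from 3 cultures of Zmpste24-/- and 3 of wild-type (WT, Zmpste24+/+) mouse embryonic fibroblasts, all of strain C57BL/6, made from E13.5 embryos and grown to passage 3. Each culture was measured on 1 Affymetrix Mouse Genome 430 2.0 array, and the values are linear signals that the authors had scaled to one level per array. Zmpste24 encodes the metalloprotease that matures prelamin A, and the design asks what differs at an early passage when it is missing. The cells carry the change from the start of culture and lack the tissue around them, and the labels do not describe the allele.

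CCN proteins share a chain of cysteine-rich modules that resemble parts of insulin-like growth factor binding proteins, von Willebrand factor and thrombospondin, and most end in a cysteine-knot domain, which Ccn5 lacks. They bind integrins, heparan sulphate proteoglycans and several growth factors. Ccn1 and Ccn2 are rapidly induced by serum, stretch and TGF-beta and are classic targets of YAP with TEAD factors and of SRF. Ccn4 was found as a gene induced by Wnt signals, Ccn3 is known for restraining proliferation and for its place in cartilage, and Ccn5 is known as an opponent of Ccn2 in fibrosis.

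The Ccn1 promoter is shown because a promoter sequence was matched for Ccn1 alone of the 5 genes. This promoter carries the letters of the TEAD motif, the element through which YAP is known to act. The part of that motif in the array values was not tested. The sequence is RefSeq's for GRCm38.p6, minus strand, chr3:145649936-145650235, running 5′ to 3′ from 250 bases before the start of the gene to 50 after it. No build is named for the arrays. Capitals mark the letters of the motifs found.
Ccn1: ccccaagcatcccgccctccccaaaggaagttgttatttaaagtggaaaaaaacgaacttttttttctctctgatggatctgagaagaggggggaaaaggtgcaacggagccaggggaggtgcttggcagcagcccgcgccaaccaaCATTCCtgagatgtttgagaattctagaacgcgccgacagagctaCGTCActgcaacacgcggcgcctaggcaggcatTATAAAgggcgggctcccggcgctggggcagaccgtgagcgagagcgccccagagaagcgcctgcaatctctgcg
Both strands were searched. The TEAD motif, GGAATG or CATTCC, lay once at -103 to -98 from the start, and 14.7% of 32851 promoters of this length hold it. The half-site of the cyclic AMP response element, TGACG or CGTCA, lay at -58 to -54 (20.8% of promoters), and the TATA box letters, TATAAA or TTTATA, at -25 to -20 (13.6%). The SRF-binding CArG box was searched as well and was not in this window (1.63% of promoters hold it). The 3 motifs found do not overlap each other. These matches describe letters and do not show that a factor binds there.

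The targeted gene, Zmpste24, read 365, 182 and 226 in Zmpste24-/- cultures 1, 2 and 3, against 3850, 2249 and 2043 in WT cultures 1, 2 and 3, without overlap. The log2 difference was -3.31 (limma adjusted p = 4.0e-05 with the replicate block, 0.987 without), and whether this probe set lies in the deleted part is not known from the labels. The arrays of number 1 stood apart in both genotypes: their correlation with each other over the tested probe sets was 0.985, against 0.927 to 0.934 with the other 4 arrays, which correlated among themselves at 0.9801 to 0.987. Of the 10 fibroblast markers all passed the filter, with a summed signal of 81827 to 103116 in Zmpste24-/- cultures and 85236 to 103948 in WT cultures. Macrophage markers, 8 on the array and 7 past the filter, summed to 10451, 1099 and 1099 in Zmpste24-/- cultures 1, 2 and 3, against 5840, 1301 and 1637 in WT cultures 1, 2 and 3. None of these markers was at 0, and 3 of the 8 were below the filter level in every culture of numbers 2 and 3. By Xist and the Y-linked Eif2s3y and Kdm5d, the pair of number 1 was of like sex while in numbers 2 and 3 the Zmpste24-/- culture was female and the WT culture male.

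Ccn3 was higher in every Zmpste24-/- culture than in any WT culture, by about 1.8-fold and 1.9-fold in its 2 probe sets, but did not pass the adjusted threshold. The other members, Ccn1, Ccn2, Ccn4 and Ccn5, had overlapping genotypes, with ratios of mean signal between 0.933 and 1.07. The test was limma on log2(signal + 16), a scale on which the change of dim genes is understated, with a Benjamini-Hochberg adjusted p under 0.05. Without a block, 0 of 10 CCN probe sets and 0 of all 27022 tested (0%) were called, and 2 of 10, both of Ccn3, had an unadjusted p under 0.05, against 1.29% of all. Cultures carry numbers 1 to 3 in the labels of either genotype. Those of number 1 stood apart in both, so the fit with the replicate number as a block is given beside that without. With the replicate block 0 of 10 were called, against 0.0185% of all, and the same 2 had an unadjusted p under 0.05, against 8.99% of all. Genotypes did not overlap for 2 of 10 probe sets, both higher in Zmpste24-/- (2.22% of all), and for 0 of 10 lower (3.03% of all).

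**Figure D1:**
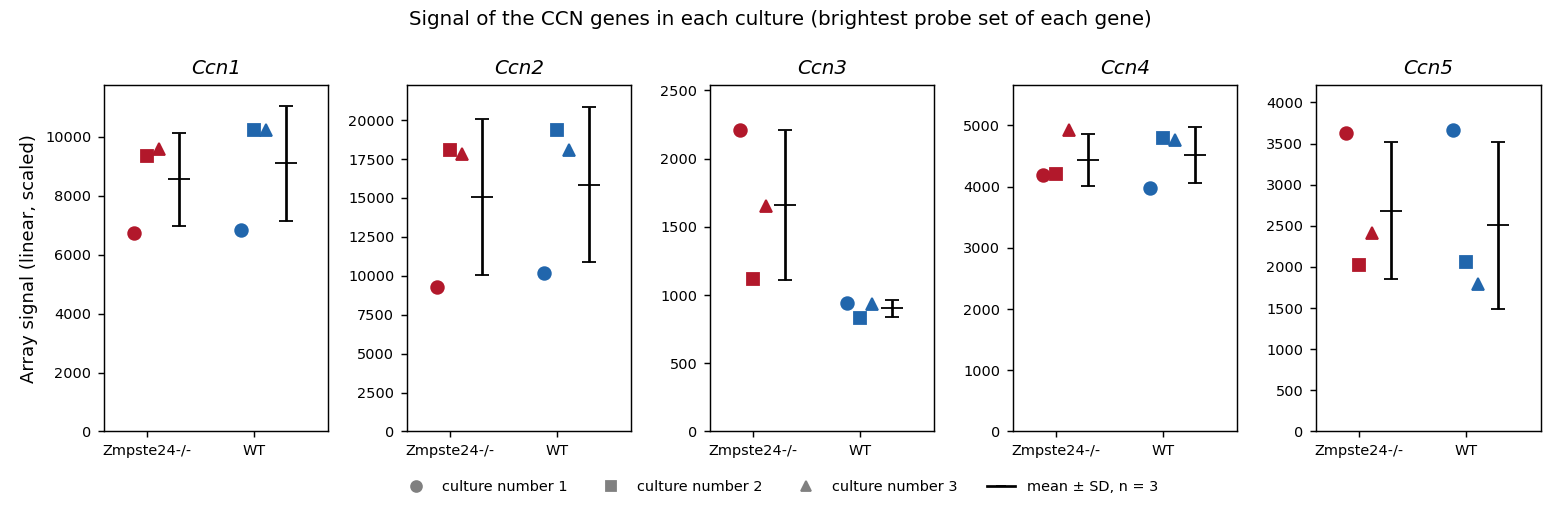
Linear array signal of each CCN gene (brightest probe set) in the 3 Zmpste24-/- (left) and 3 WT (right) cultures, with marker shape for the culture number and bars for mean ± SD (n = 3). Each panel has its own axis from 0, and levels cannot be compared between genes. Ccn3 in Zmpste24-/- cultures, at 1115 to 2209, lies above all WT cultures, while culture 1 is low for Ccn1 and Ccn2 and high for Ccn5 in both genotypes.

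Ccn3 encodes the CCN protein once named for its overexpression in nephroblastoma. Its brighter probe set read 2209, 1115 and 1655 in Zmpste24-/- cultures 1, 2 and 3, against 940, 833 and 932 in WT cultures 1, 2 and 3. The 3 WT cultures lay close together and the Zmpste24-/- cultures were spread, with culture 1 highest and culture 2 nearest to WT. The means were 1660 ± 547 in Zmpste24-/- and 901 ± 59.5 in WT (SD, n = 3 each). The dimmer probe set had the same order within Zmpste24-/-, with 1168, 699.6 and 864, against 480.3, 438 and 486 in WT cultures 1, 2 and 3. Its means were 910.4 ± 238 in Zmpste24-/- and 468 ± 26.1 in WT (SD, n = 3 each). By the array maker's naming the brighter one (1426852_x_at) holds probes that can match other transcripts, and the dimmer one (1426851_a_at) matches transcripts of one gene. They are not independent measurements, since both come from the same RNA and the annotation lists the same source sequence for them.

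In the same-numbered pairs the brighter Ccn3 probe set was 2.35-fold, 1.34-fold and 1.78-fold higher in Zmpste24-/- in numbers 1, 2 and 3. The dimmer was higher by 2.43-fold, 1.60-fold and 1.78-fold. The largest ratio of both was thus in number 1, the pair of like sex and the one with the most macrophage marker signal, whose part was not tested. The log2 difference was 0.82 for the brighter (limma SE 0.26, 95% interval 0.19 to 1.44, adjusted p = 0.9999 without a block) and 0.91 for the dimmer (SE 0.22, interval 0.38 to 1.43, adjusted p = 0.9999). With the replicate block the intervals were 0.49 to 1.14 and 0.61 to 1.21, with limma adjusted p of 0.249 and 0.151. Differences at least as high as these were found in 0.292% and 0.174% of all tested probe sets. An exact permutation test of 3 against 3 cultures gave a two-sided p of 0.1 for both, the smallest that this design allows. In numbers 2 and 3 alone, with the cultures of number 1 left out, the differences were 0.62 and 0.73. Their limma adjusted p was 0.0885 and 0.0529 with the replicate block, and 0.536 and 0.228 without it. In these cultures genotype cannot be told apart from sex. In cultured cells measured in bulk, more cells that make Ccn3 and more Ccn3 RNA per cell cannot be told apart.

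**Figure D2:**
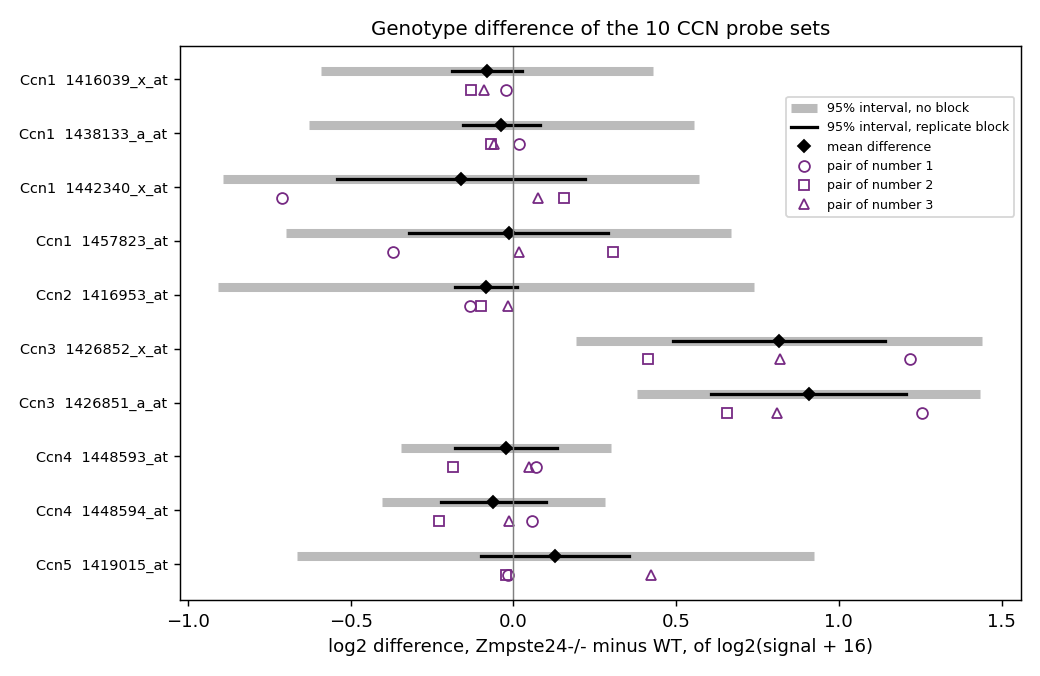
Log2 difference, Zmpste24-/- minus WT, of the 10 CCN probe sets (diamonds), with limma's 95% interval without a block (grey) and with the replicate block (black), and the difference in each same-numbered pair (open symbols). Both Ccn3 probe sets lie above 0 in all 3 pairs, and the intervals of the other 8 include 0.

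Ccn1 encodes an integrin ligand that drives adhesion, migration and, in wound repair, senescence of fibroblasts. Its brightest probe set (1416039_x_at) read 6740, 9352 and 9603 in Zmpste24-/- cultures 1, 2 and 3, against 6849, 10232 and 10232 in WT cultures 1, 2 and 3. Culture 1 was lowest in both genotypes, and the genotypes overlapped. The log2 difference was -0.08 (limma 95% interval -0.19 to 0.03 with the replicate block, -0.59 to 0.43 without). The second probe set (1438133_a_at) differed by -0.04, with a block interval of -0.16 to 0.08. The block intervals thus end at 0.03 and 0.08 above WT on the log2 scale.

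The other 2 Ccn1 probe sets, the dim ones, did not follow the bright pair between genotypes. Probe set 1442340_x_at read 458, 827 and 999.8 in Zmpste24-/- cultures, against 761, 742 and 948 in WT cultures. Probe set 1457823_at read 505, 904 and 943 in Zmpste24-/- cultures, against 657, 728 and 932 in WT cultures. Both were lower in Zmpste24-/- in number 1, by 0.71 and 0.37 on the log2 scale, and higher in number 2, by 0.15 and 0.31. Over all pairs they differed by -0.16 and -0.02, with wide block intervals of -0.54 to 0.22 and -0.32 to 0.29. Both have one source sequence in the annotation, other than those of the bright pair, so the 4 probe sets need not report the same transcripts.

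Ccn2 encodes connective tissue growth factor, a driver of matrix production in fibroblasts downstream of TGF-beta. It read 9272, 18064 and 17835 in Zmpste24-/- cultures 1, 2 and 3, against 10168, 19360 and 18058 in WT cultures 1, 2 and 3. Each Zmpste24-/- culture was slightly below its same-numbered WT culture, by ratios of 0.912, 0.933 and 0.988, while the spread between numbers was far wider. The log2 difference was -0.08 (SE 0.042 and limma adjusted p = 0.594 with the replicate block, SE 0.34 without). Lower values in every pair were seen for 2 of 10 CCN probe sets, Ccn2 and the brightest of Ccn1, against 16% of all tested, and higher in every pair for the 2 of Ccn3, against 15.8%.

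Ccn4 is a gene of osteoblasts and of Wnt-stimulated fibroblasts. Its brighter probe set read 4182, 4205 and 4923 in Zmpste24-/- cultures, against 3981, 4788 and 4760 in WT cultures. It varied least of the 5 genes, with an SD over the 6 arrays of 0.13 on the log2 scale, and the genotypes overlapped. The log2 differences of its 2 probe sets were -0.02 and -0.06, with block intervals of -0.18 to 0.14 and -0.22 to 0.10.

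Ccn5 encodes the member without the cysteine-knot domain, known for restraining smooth muscle growth. It read 3623, 2022 and 2411 in Zmpste24-/- cultures 1, 2 and 3, against 3663, 2055 and 1793 in WT cultures 1, 2 and 3. Genotypes lay close in numbers 1 and 2 and apart in number 3 only, where the Zmpste24-/- culture was 1.34-fold higher. The log2 difference was 0.13 (block interval -0.10 to 0.36, limma adjusted p = 0.7204).

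Culture number separated several members more than genotype did. Ccn1 and Ccn2 were lower, and Ccn5 higher, in culture 1 than in cultures 2 and 3 of both genotypes. The exception was the dim Ccn1 probe set 1442340_x_at, at 761 in WT culture 1 and 742 in WT culture 2. Ccn2 in culture 1 was at 0.517 of the mean of cultures 2 and 3 in Zmpste24-/- and at 0.543 in WT. The bright Ccn1 probe set was at 0.711 in Zmpste24-/- and 0.669 in WT. Ccn5 was 1.63-fold higher in Zmpste24-/- culture 1 and 1.90-fold higher in WT culture 1. In a limma F-test of the number terms, with genotype in the model, 5 of 10 CCN probe sets were called, against 41.6% of all tested, so a share of this size is near the background. They were Ccn2 (adjusted p = 1.5e-05), 3 probe sets of Ccn1 (1.9e-04, 2.7e-04 and 0.0237) and Ccn5 (0.00125). Of these 4 were lower in number 1 (19.2% of all) and 1 was higher (22.4% of all). The test does not say which number differs. Between numbers 3 and 2, a comparison added after the data were seen, 0 of 10 were called (0.0074% of all).

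Ccn3 and Ccn4 did not pass the number test, with limma adjusted p of 0.0666 and 0.142 for the probe sets of Ccn3 and 0.107 and 0.0680 for those of Ccn4. Ccn3 in culture 1 was 1.59-fold above the mean of cultures 2 and 3 in Zmpste24-/- and 1.07-fold in WT. For Ccn4 both cultures of number 1 were below the other 4 in each probe set, at 0.916 and 0.911 in Zmpste24-/- and 0.834 and 0.808 in WT. Counted that way, 6 of 10 CCN probe sets were lower in number 1 than in all other cultures (27.2% of all) and 1, of Ccn5, was higher (31.2% of all). Marker lists of several cell types differed with number as well, where 47.0% of all tested named genes were called. Neural and glial markers had 0 of 5 tested called, and endothelial markers 1 of 4. Macrophage markers summed to 5840 to 10451 in number 1, against 1099 to 1637 in numbers 2 and 3, and 6 of 7 tested were called, all higher in number 1. Some of the 7 passed the filter only through number 1, since 3 of the 8 were below its level in every other culture. For those the direction was set by the filter. Epithelial markers summed to 479 to 589.5 in number 1, against 904 to 1423 in numbers 2 and 3 (2 of 3 called, both lower). Skeletal muscle markers summed to 217 to 244 in number 1, against 477 to 524 in numbers 2 and 3 (2 of 2 called, both lower). Of the 10 fibroblast markers 6 were higher and 4 lower in number 1 (median log2 difference 0.37), with 5 called higher and 1 lower. Among them Lum and Dcn, matrix proteoglycans, were 20.3-fold and 9.57-fold higher in culture 1 than the mean of cultures 2 and 3 in Zmpste24-/-, and 10.4-fold and 5.86-fold in WT. The part of these markers in the CCN values was not tested.

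**Figure D3:**
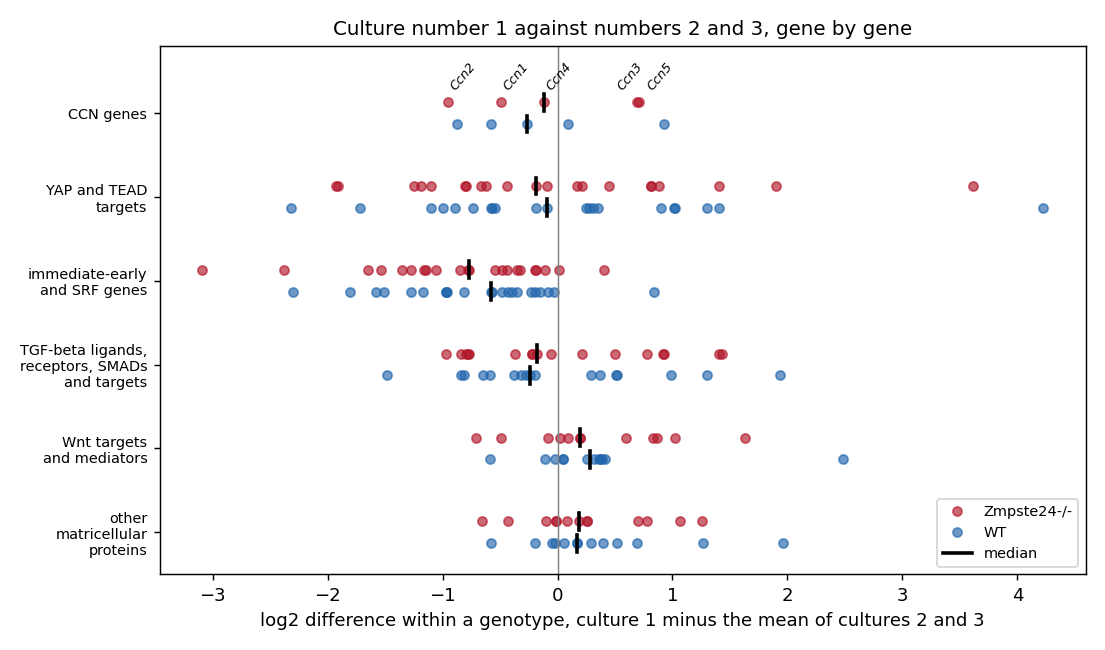
Log2 difference of culture 1 from the mean of cultures 2 and 3 within each genotype (Zmpste24-/- above, WT below), for the CCN genes and 5 gene lists, a point per gene and a bar at the median. Immediate-early and SRF genes lie mostly below 0 in both genotypes, as do Ccn1 and Ccn2, while YAP and TEAD targets lie on both sides.

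Genes that share known inducers with Ccn1 and Ccn2 were set beside them. Of 22 immediate-early and SRF genes, all tested, 21 were lower in number 1, with a median log2 difference of -0.69, against 46.8% of all tested genes lower and a median of 0.05. The number test called 18 of them, all lower in number 1, against 47.0% of tested genes called in either direction. Fosl1, a Fos-related factor induced by growth signals, read 438 and 619 in culture 1 of Zmpste24-/- and WT, against 1996 to 2764 in the other 4 cultures. Egr1, an early serum-response factor, read 1609 in Zmpste24-/- culture 1 and 1724 in WT culture 1, against 2701 to 3180 in the others. Egr2, from the same family, was at 9.75 and 43.1 in culture 1 of Zmpste24-/- and WT and at 176 to 289 elsewhere. Actg2, a smooth muscle actin, was lower by 1.26 on the log2 scale, and Cnn1, a calponin of contractile cells, by 0.82. Fos itself differed by -0.07 (limma adjusted p = 0.852), so that not all immediate-early genes shared the pattern. Fosb, the member that was higher in number 1, differed by 0.62 (limma adjusted p = 0.407). It was dim, at 11.1 to 58.5 over the 6 arrays, where the filter level was 39.4. Fos and Fosb were named after their values were seen.

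YAP and TEAD targets other than the CCN genes were split by culture number. Of 21 tested, 11 were lower and 10 higher in number 1, with 7 called on each side, against 47.0% of all tested genes called in either direction. Ankrd1, a nuclear ankyrin-repeat protein and textbook YAP target, was lower by 2.13 on the log2 scale, Nuak2, a kinase, by 1.81, Ajuba, a LIM protein, by 1.14, Axl, a receptor tyrosine kinase, by 0.99 and Amotl2, an angiomotin, by 0.68. Igfbp3, a carrier of insulin-like growth factors, was higher by 3.92 and Tgfb2, a TGF-beta ligand, by 1.35. Between genotypes no gene of this list was called with or without the block, 14 of 21 were higher in Zmpste24-/- and the median log2 difference was 0.02, against 49.0% of all tested genes higher and a median of -0.0036. The values of smallest p were Axl (-0.15), Crim1 (0.29), a transmembrane binder of growth factors, Rbms3 (0.12), an RNA-binding protein, and Tgfb2 (0.23).

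No factor upstream was called between genotypes. Of 17 tested regulators of the Hippo pathway, YAP, TEAD and SRF, 6 were higher and 11 lower in Zmpste24-/-, 0 were called with limma in either fit, and the median was -0.02. Wwtr1, which encodes the YAP relative TAZ, differed by 0.11, the Hippo adaptor Mob1a by 0.09, the kinase Lats1 by 0.11 and Tead3 by -0.33. Of 22 immediate-early and SRF genes, 7 were higher and 15 lower between genotypes (median -0.07, 0 called), led by Egr2 at -0.67, Cnn1 at -0.34, Actg2 at -0.14 and tropomyosin Tpm1 at -0.11. For TGF-beta ligands, receptors, SMADs and targets, 9 of 17 were higher (median 0.04, 0 called), with the receptor Tgfbr1 at 0.36, the latent-complex protein Ltbp3 at 0.28 and the SMAD repressor Skil at 0.15. For Wnt targets and mediators, of interest for Ccn4, 3 of 12 tested were higher and 9 lower (median -0.07, 0 called), with the cyclin Ccnd1 at -0.18, the receptors Lgr5 and Fzd7 at -0.37 and 0.12 and Tcf7l1 at -0.16.

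Receptors and partners of CCN proteins also gave no call between genotypes. Of 21 tested, 9 were higher and 12 lower in Zmpste24-/- (median -0.01). Bmp4, a growth factor that CCN proteins can bind, read 3550, 2364 and 3246 in Zmpste24-/- cultures, against 2719, 1823 and 1862 in WT cultures, and its log2 difference was 0.52 (limma adjusted p = 0.2700 with the replicate block). Each Zmpste24-/- culture exceeded its same-numbered WT culture, while the ranges overlapped. The integrin chains Itgb1 and Itgb3, through which CCN proteins bind cells, differed by -0.15 and -0.26, and Igf1, a growth factor, by 0.46. Igf1 read 3786, 183 and 329 in Zmpste24-/- cultures, against 1936, 189.6 and 233 in WT cultures, with number 1 far above the others in both. Of 10 proteases known to cut CCN proteins 7 were tested and 0 called. The collagenase Mmp13 differed by 0.79 on the log2 scale, with 4297, 102 and 103 in Zmpste24-/- cultures, against 1596, 46.6 and 100.1 in WT cultures, and number 1 was far above the others in both. Mmp2, Mmp7 and Mmp9 differed by 0.11, 0.45 and -0.15.

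Other matricellular proteins were higher in 8 of 13 tested (median 0.05, 0 called). Smoc1, a calcium-binding matrix protein of the SPARC family, was higher in all Zmpste24-/- cultures (737, 424 and 470) than in WT cultures (209, 325 and 315), with a log2 difference of 0.89 (limma adjusted p = 0.407 with the replicate block). Thrombospondin Thbs3, periostin (Postn) and tenascin C (Tnc) differed by 0.23, -0.19 and -0.10. Cartilage and bone markers, of which 6 of the 8 on the array passed the filter, were higher in 5 of 6 in Zmpste24-/- cultures (median 0.43, 0 called). Their summed signal was 1437 to 1828 in Zmpste24-/- cultures, against 1006 to 1741 in WT cultures, and none was at 0. Col2a1, the cartilage collagen, read 279.7, 888 and 963 in Zmpste24-/- cultures, against 159.7, 517 and 369 in WT cultures, and Col10a1, Sp7 and Sox9 differed by 1.29, 0.77 and 0.09. In number 1, where the Ccn3 ratio was largest, their summed signal was 1437 in the Zmpste24-/- culture and 1741 in the WT culture. These markers were chosen with earlier results of these data known, and their part in the Ccn3 values was not tested. By culture number, 4 of the 6 were lower and 2 higher in number 1, with 2 called lower and 1 called higher. Of 5 neural and glial markers, 4 were higher in Zmpste24-/- (median 0.38, 0 called), with summed signals of 1655 to 2183 in Zmpste24-/- cultures and 814 to 1940 in WT cultures. Endothelial markers, 4 of 6 past the filter, summed to 687 to 866 in Zmpste24-/- cultures and 527 to 633 in WT cultures, without overlap. Epithelial markers, 3 of 6 past the filter, summed to 589.5 to 932 in Zmpste24-/- cultures and 479 to 1423 in WT cultures. Skeletal muscle markers, 2 of 6 past the filter, summed to 244 to 498 in Zmpste24-/- cultures and 217 to 524 in WT cultures. None of these markers was at 0, and their part in the CCN values was not tested.

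For each member the 3 named genes with the closest pattern were found, by the root mean square difference of log2 values over the 6 arrays after centring each gene on its own mean. These are the nearest of 13038 tested genes by construction, and the 6 arrays share the gap of number 1. The nearest to Ccn3 was Il6, an inflammatory cytokine, at 0.0803, where the median gene lay at 0.564. Il6 read 551, 271 and 363 in Zmpste24-/- cultures, against 197, 175 and 204 in WT cultures, with the same highest culture and no overlap of genotypes. Sorbs2, a cytoskeletal adaptor, lay at 0.131 and Npr3, the clearance receptor for natriuretic peptides, at 0.149. Sorbs2 differed between genotypes by 0.92 (limma adjusted p = 0.108 with the replicate block), Il6 by 0.93 and Npr3 by 0.73 (0.2700 for both).

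**Figure D4:**
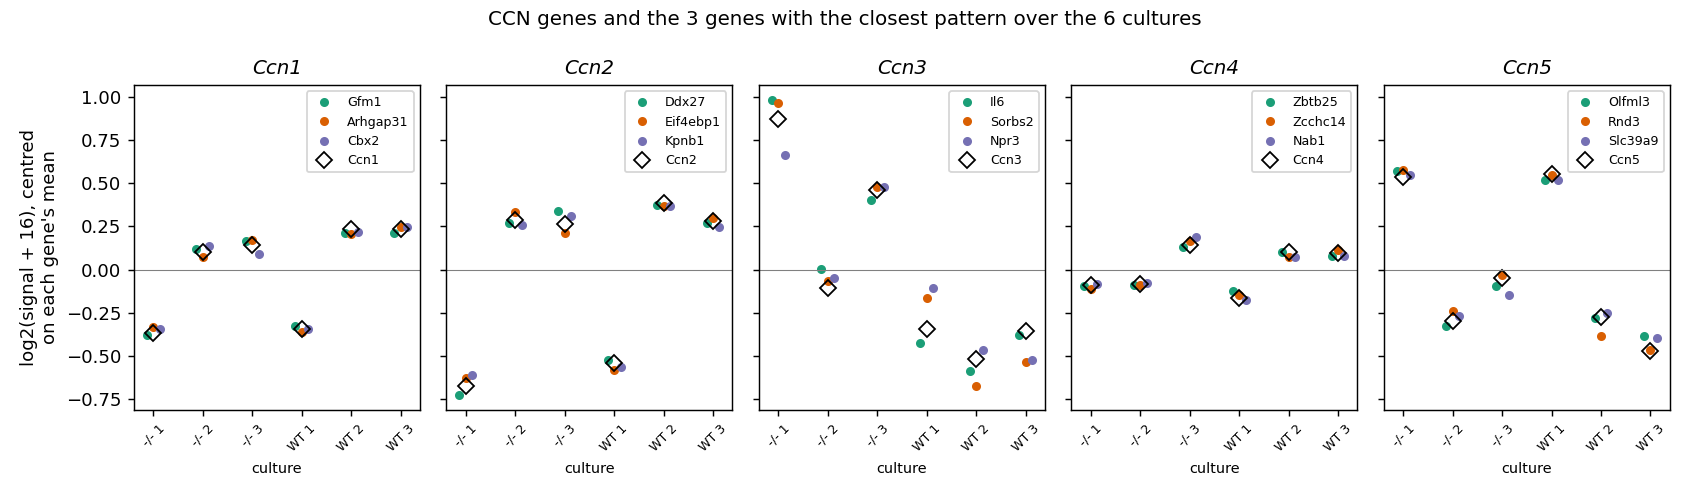
Log2(signal + 16), centred on each gene's mean, in the 3 Zmpste24-/- and then the 3 WT cultures, for each CCN gene (diamonds) and the 3 genes with the closest pattern (dots). Ccn3 and its neighbours are highest in Zmpste24-/- culture 1, while Ccn1 and Ccn2 with theirs are lowest in culture 1 of both genotypes.

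The 9 neighbours of Ccn1, Ccn2 and Ccn5 passed the number test, while the 3 of Ccn4 did not (limma adjusted p = 0.479, 0.208 and 0.151). These outcomes follow largely from the choice, since neighbours were picked by their values over the same arrays. Ccn1 lay nearest to Gfm1, a mitochondrial elongation factor (0.0194), Arhgap31 (0.0255) and the Polycomb protein Cbx2 (0.0278). Ccn2 lay nearest to the RNA helicase Ddx27 (0.0380), the translation repressor Eif4ebp1 (0.0393) and the nuclear import receptor Kpnb1 (0.0395). Eif4ebp1 read 4781 in Zmpste24-/- culture 1 and 4938 in WT culture 1, against 8575 to 9553 in the other 4 cultures. Ccn5 lay nearest to the secreted Olfml3 (0.0456), Rnd3 (0.0533) and the zinc transporter Slc39a9 (0.0554), all higher in number 1. Ccn4, the flattest member, lay nearest to Zbtb25 (0.0169), Zcchc14 (0.0193) and Nab1 (0.0257).

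Within the family the closest patterns were those of Ccn1 and Ccn4, at 0.174, and of Ccn1 and Ccn2, at 0.186. The most distant were Ccn2 and Ccn5, at 0.829, and Ccn2 and Ccn3, at 0.801. Ccn3 and Ccn5 lay 0.463 apart, both being high in Zmpste24-/- culture 1, but only Ccn5 was high in WT culture 1. Ccn4 lay 0.525 from Ccn3 and 0.492 from Ccn5. The measure takes in the size of the changes as well as their shape. Ccn6, a relative outside the set described, read 19.5 to 43.2 over the 6 arrays and was below the filter.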

How the data were processed

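The authors deposited linear intensity per probe set, and the submitters' processing notes name GCOS, the array maker's software, as its source. No version or algorithm of it is given in the sources used here. Every array has a mean of 500.003 after 2% is trimmed at each end, which hides any change in total RNA per cell. After 64 control probe sets were left out, symbols were taken from the platform annotation and checked by gene identifier against RefSeq (GRCm38.p6). Values were analysed as log2(value + 16). The dimmest 40% by mean over all arrays (under 39.4) were left out. All 27022 remaining probe sets were fitted with limma 3.58.1 (R 4.3.3) with its intensity-trend option, and p-values were adjusted over all of them. The fits were tested on simulated data. Figures were drawn with matplotlib 3.10.9.

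As a check of pairing, each culture's deviations from its genotype's mean were correlated with those of its numbered partner. The values were 0.829, 0.588 and 0.574 for numbers 1, 2 and 3, all over 0.1. Deviations within a genotype cancel out, so the gap of number 1 moves cultures 2 and 3 the same way in both genotypes. That gap can raise the values of numbers 2 and 3 whichever of these cultures are partners. The check therefore cannot show which cultures of numbers 2 and 3 belong together. The labels mention pairs but do not tie them to the numbers. They do not say that cultures came from different litters, so p-values measure the spread between these cultures, and 3 arrays per group limit precision. The members and the 15 gene lists were chosen with earlier results of these data known. Named genes are all members, up to 4 per list by smallest p with the replicate block, examples of listed genes past the threshold in a fit described, and the 3 nearest patterns of each member. A gene is represented by its brightest probe set. Alternatives were pseudocount, filter, normalization, trend, array weights, replicate block and arrays left out.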

Additional observations from a re-analysis of the deposited data

How the results depend on the processing

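No CCN probe set was called between genotypes under any of the alternatives run, and both Ccn3 probe sets stayed positive in all of them (0.59 to 1.08, the lowest without Zmpste24-/- replicate 1). Over all probe sets the count of 0 became 5 with the replicate block (also with pseudocounts of 1 and 64 there, added after seeing the data), 11 with number 1 as one block, 20 with replicates 2 and 3 alone, 69 with these and the block, 1 with array weights, and 0 to 4 with single arrays left out (4 without WT replicate 1). The replicate block changed no CCN call. Signs turned in some settings, without a call, for all probe sets other than those of Ccn3 and the dimmer of Ccn4 (1448594_at). With array weights the 2 dim Ccn1 probe sets differed by 0.17 and 0.16 and Ccn4 (1448593_at) by 0.016, and with replicates 2 and 3 alone, with or without the block, the dim Ccn1 probe sets by 0.12 and 0.16. With single arrays left out the ranges were -0.27 to 0.082 and -0.26 to 0.16 for the bright Ccn1 probe sets, -0.39 to 0.16 and -0.17 to 0.27 for the dim ones, -0.38 to 0.23 for Ccn2, -0.11 to 0.023 for Ccn4 (1448593_at) and -0.11 to 0.44 for Ccn5. Leaving out 1 array gives number 1 unequal weight in the genotypes. Between culture numbers, 4 to 7 CCN probe sets were called over the settings, and with number 3 against number 2 only (added after seeing the data) 0, against 2 of all. Centring on the median moved all number differences by -0.11.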
